A study of Homo sapiens with 6 samples.

Results

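The MYC-MAX network of Ovcar8 cells was described from the RNA of 10 genes, taken by gene name from a count table of 58735 genes: MYC, MYCN, MYCL, MAX, MXD1, MXD3, MXD4, MXI1, MNT and MLX. All 10 were found, 9 had at least 1 count and those same 9 passed the filter on low counts. Ovcar8 is an established line of human high-grade serous ovarian cancer. The serum-starved group was kept without serum for 48 h, and its counterpart, the group with FBS, had 5% fetal bovine serum in RPMI-1640 medium. Each group had 3 libraries of total RNA, and no other agent or engineered allele is named for either. Nothing in the labels tells separate cultures from repeat samples of a single one, so the spread behind each p-value may be technical.

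MAX is a small basic helix-loop-helix leucine zipper protein that pairs with MYC, MYCN or MYCL to activate genes, and with MXD1, MXI1, MXD3, MXD4 or MNT to repress them. These pairs compete for MAX and for the same DNA element, the E-box. MLX is a relative of MAX that pairs with MXD1, MXD4 and MNT and with the glucose-responsive factors MLXIP (MondoA) and MLXIPL (ChREBP). MYC is a classic growth factor target that cells induce when serum is added back, while MXD proteins are known from differentiating and resting cells, and MYC is often amplified in serous ovarian cancer.

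Libraries held 17288356 to 19558484 counts in the serum-starved group and 16379416 to 17882533 in the group with FBS. Levels are given as TMM-normalized CPM, that is library-size CPM after scaling for composition, by replicate 1, 2 and 3. Of 13 markers of ovarian carcinoma lines 8 passed the low-count filter. PAX8, KRT7, KRT8, KRT18, MSLN and FOLR1 were present in every library (PAX8 at 68.2 to 86.1 CPM without serum and 59.4 to 72.7 CPM with FBS). WT1 was low, at 0.748 to 2.69 CPM without serum and 1.58 to 2.38 CPM with FBS. EPCAM was at 1.02 to 3.79 CPM without serum and 1.82 to 3.96 CPM with FBS. KRT19 had at most 4 counts in a library, and MUC16, SOX17, MECOM and CDH6 had no count in any. Of 13 markers of other cell types 3 passed the low-count filter, none of the 13 was called, DCN, CD3E and HBB had no count, and the list summed to 767 to 835 CPM without serum and 320.0 to 580 CPM with FBS, nearly all of it COL1A1. VWF, an endothelial marker on that list, was at 4.21, 1.32 and 2.64 CPM without serum and at 0.305, 0.477 and 0.260 CPM with FBS, without overlap (log2 fold change 2.94, edgeR adjusted p = 0.134), and the groups did not overlap in COL1A1 either. Their part in the results below was not tested. The libraries differed in base composition: genes in the decile of highest transcript GC content deviated from their mean by a median log2 value of 0.48 in serum-starved replicate 1, -0.47 in serum-starved replicate 3 and -0.27 in FBS replicate 1, and those of the lowest decile by -0.70, 0.29 and 0.79 in these libraries. Genes in the longest decile stood a median 0.47 above their mean on the log2 scale in serum-starved replicate 3. Fold changes corrected for GC content and length therefore stand beside the uncorrected ones for most genes named.

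The E-box is the letters CACGTG, which read the same on both strands. Among 12 windows of RefSeq (GRCh38.p14) around the starts of 9 of the 10 genes (MYC was not among them), from 250 bases before the start to 50 after it, 3 held it, in MXD4, MNT and MLX, against 7.26% of all 35116 windows of that length. These 3 windows are shown because they carry the network's own DNA element, with the E-box in capitals and each on the strand of its gene: MXD4 at chr4:2262060-2262359 on the minus strand, MNT at chr17:2401011-2401310 on the minus strand and MLX at chr17:42566850-42567149 on the plus strand. Counted from the start, the first base of the E-box lay at -238 in MXD4, at -193 in MNT and at -50 in MLX. A match describes these letters and does not show that a protein binds there.
MXD4: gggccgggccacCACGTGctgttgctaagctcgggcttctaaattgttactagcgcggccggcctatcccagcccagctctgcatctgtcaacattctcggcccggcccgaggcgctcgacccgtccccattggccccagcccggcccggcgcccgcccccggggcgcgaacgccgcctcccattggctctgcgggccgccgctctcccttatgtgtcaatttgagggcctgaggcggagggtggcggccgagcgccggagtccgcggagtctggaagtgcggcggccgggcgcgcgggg
MNT: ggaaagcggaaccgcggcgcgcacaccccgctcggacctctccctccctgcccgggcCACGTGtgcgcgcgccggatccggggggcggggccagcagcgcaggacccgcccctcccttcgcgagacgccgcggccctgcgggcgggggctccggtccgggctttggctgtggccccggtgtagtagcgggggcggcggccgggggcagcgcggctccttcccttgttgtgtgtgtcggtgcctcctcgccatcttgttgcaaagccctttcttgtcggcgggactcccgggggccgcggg
MLX: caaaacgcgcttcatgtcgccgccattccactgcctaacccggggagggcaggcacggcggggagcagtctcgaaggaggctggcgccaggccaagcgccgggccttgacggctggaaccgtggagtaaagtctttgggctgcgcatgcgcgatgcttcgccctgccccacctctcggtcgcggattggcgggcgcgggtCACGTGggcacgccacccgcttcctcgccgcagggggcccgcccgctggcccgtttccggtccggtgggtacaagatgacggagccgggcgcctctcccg

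The design sets cells deprived of serum for 48 h against cells that kept it, and the series title links serum starvation to quiescence. In the MYC-MAX network none of the 9 measured genes passed. MYC averaged 132 ± 59.5 CPM without serum and 142 ± 2.96 CPM with FBS (SD, n = 3 each), and MAX averaged 33.4 ± 6.23 CPM without serum and 31.0 ± 5.37 CPM with FBS. The groups did not overlap in 1 of the 9, MLX (11.1%, a share below the 17.7% of all genes). MLX was at 58.9 ± 8.23 CPM without serum and 83.9 ± 3.29 CPM with FBS, a difference that did not pass. Its partner MLXIP, not a member, was at 200 ± 36.2 CPM without serum and 97.9 ± 22.9 CPM with FBS, which also did not pass.

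Groups were compared by the quasi-likelihood F-test of edgeR, with p-values adjusted after Benjamini and Hochberg over all 13772 genes tested, and it called 0 of the 9 members at 0.05, against 0.283% of all genes (0.24% higher, 0.0436% lower). At an unadjusted p under 0.05 the number was also 0 of 9, against 10.4%, and DESeq2 and limma-voom called 0 of 9. With the GC and length correction, 2 of 9 members, MLX and MXD3, had an unadjusted edgeR p under 0.05, against 2199 of 13772 genes. Of the 9, 6 had a fold change above 0 and 3 below, with a median log2 fold change of 0.10 against -0.02 over all genes. The groups did not overlap in 1 member, MLX, against 17.7% of all genes. The 95% intervals below show how large a difference these 6 libraries still allow.

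**Figure D1:**
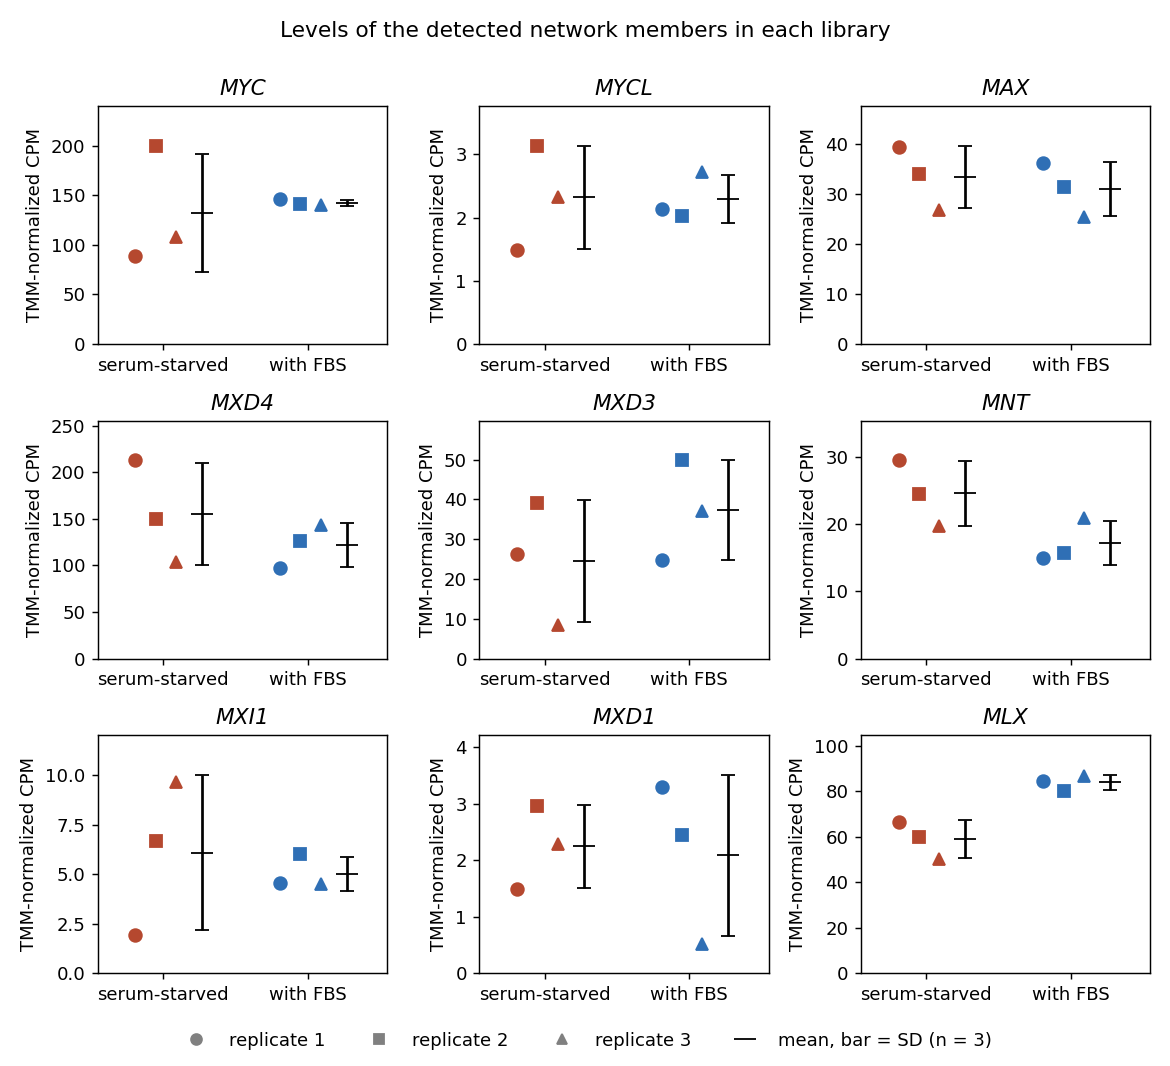
Each point is the TMM-normalized CPM of 1 library (vertical axis, linear from 0) for the 9 detected genes, serum-starved on the left and with FBS on the right, with replicate shown by marker shape and the mean ± SD (n = 3) as a black bar. MYC spans 88.2 to 199.6 CPM without serum around the 3 close points with FBS, and MLX is the gene whose groups do not overlap.

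Among the activating partners of MAX, MYC was nearly the only family member with RNA in these cells. MYC (ENSG00000136997, chromosome 8, 127735434 to 127741434, GRCh38) stood at 88.2, 199.6 and 107 CPM in the serum-starved libraries and at 146, 141 and 140.3 CPM in the libraries with FBS. Serum-starved replicate 2 was above all 3 libraries with FBS and the other two serum-starved libraries were below them, so the groups overlapped. The log2 fold change was -0.11 with a standard error (SE) of 0.32 and a 95% interval of -0.79 to 0.57 (edgeR adjusted p = 0.937). Its sign rested on single libraries: leaving out serum-starved replicate 1 gave 0.12, leaving out replicate 2 of that group gave -0.55 and leaving out replicate 3 gave 0.02.

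MYC differed more between the serum-starved libraries than between those with FBS. The highest library was 2.26 times the lowest without serum and 1.04 times the lowest with FBS, where the median gene tested had ratios of 1.95 without serum and 1.54 with FBS. Without serum 61.0% of genes had a smaller ratio than MYC, and with FBS 0.675% had. After correction for GC content and length MYC was at 71.0, 180 and 146 CPM without serum and at 166, 129 and 136 CPM with FBS, so the near equality with FBS was not kept and the low value in serum-starved replicate 1 was. No test of this difference in spread was made. In bulk RNA, fewer cells with a transcript and less of it per cell cannot be told apart.

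MYCL, a family member known from small cell lung cancer, was low. MYCL (ENSG00000116990, chromosome 1, 39895426 to 39902256) had 22, 57 and 53 counts without serum and 42, 34 and 42 counts with FBS. In CPM it stood at 1.49, 3.13 and 2.33 without serum and at 2.13, 2.03 and 2.73 with FBS, with overlapping groups. The 95% interval of its log2 fold change of 0.02 ran from -1.09 to 1.13 (edgeR adjusted p = 0.993). MYCN, the family member amplified in neuroblastoma (ENSG00000134323, chromosome 2, 15940564 to 15947007), had no count in any of the 6 libraries. A count of 0 allows up to 3 counts in a library, which is 0.0494 to 0.0767 FPKM without serum and 0.0564 to 0.0734 FPKM with FBS, for counting error only.

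MAX, the shared partner (ENSG00000125952, chromosome 14, 65006174 to 65102695), stood at 39.3, 34.0 and 26.9 CPM without serum and at 36.1, 31.4 and 25.4 CPM with FBS. The groups overlapped almost wholly, and the range inside each group was wider than the distance between their means. Its log2 fold change was 0.11 (SE 0.30, 95% interval -0.52 to 0.73, edgeR adjusted p = 0.935). Corrected for GC content and length it was 0.01 (95% interval -0.47 to 0.49). MAX overlaps FNTB, a farnesyltransferase subunit on the opposite strand, over 56479 bases, and FNTB had 1588 counts over the 6 libraries against 3436 for MAX. Whether counting used strand is not given in the sources used here, so reads from such overlaps cannot be told apart.

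Among the repressive partners, MXD4 carried most of the RNA. MXD4 (ENSG00000123933, chromosome 4, 2247432 to 2262294), whose protein pairs with MAX or MLX and recruits the SIN3 corepressor, stood at 213, 150.1 and 104 CPM without serum and at 96.8, 126 and 144 CPM with FBS. Serum-starved replicate 1 was the highest of the 6, and serum-starved replicate 3 lay inside the range with FBS. The log2 fold change was 0.35 (SE 0.32, 95% interval -0.32 to 1.02, edgeR adjusted p = 0.756). It was 0.07 without serum-starved replicate 1 and 0.10 with the GC and length correction, and transcripts of MXD4 have a mean GC content of 61.9%.

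MNT, a ubiquitous MAX partner that opposes MYC (ENSG00000070444, chromosome 17, 2384060 to 2401118), was at 29.6, 24.6 and 19.8 CPM without serum and at 15.0, 15.8 and 21.0 CPM with FBS. The groups overlapped only between serum-starved replicate 3 and FBS replicate 3. The log2 fold change of 0.51 (SE 0.32, 95% interval -0.16 to 1.18) did not pass (edgeR adjusted p = 0.601), and with GC content and length accounted for it was 0.22. The corrected levels were 22.0, 22.7 and 21.6 CPM without serum and 19.7, 15.5 and 21.7 CPM with FBS, which again overlapped.

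MXD3, a member of the family known from proliferating S-phase cells, had the lowest fold change among the 9 (ENSG00000213347, chromosome 5, 177301461 to 177312757). It was at 26.2, 39.0 and 8.54 CPM without serum and at 24.7, 49.8 and 37.2 CPM with FBS. Serum-starved replicate 3 was far below the other 5 libraries, whose values were mixed between the groups. The log2 fold change was -0.60 (SE 0.43, 95% interval -1.50 to 0.30, edgeR adjusted p = 0.677), and without serum-starved replicate 3 it was -0.19. With the GC and length correction it was -0.80, with a 95% interval of -1.51 to -0.10 and an edgeR adjusted p of 0.247. MXD3 overlaps PRELID1, on the opposite strand and with 39603 counts over the 6 libraries against 3185, and RAB24 on its own strand, so its values are uncertain.

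The remaining MXD genes were low and scattered. MXI1, which encodes MXD2 (ENSG00000119950, chromosome 10, 110207605 to 110287365), had 1.90, 6.70 and 9.69 CPM without serum and 4.57, 6.02 and 4.49 CPM with FBS. The serum-starved libraries lay on both sides of those with FBS, 5.09 times apart from lowest to highest against 1.34 times with FBS. Its log2 fold change was 0.29 (95% interval -0.77 to 1.35, edgeR adjusted p = 0.892), and -0.22 without serum-starved replicate 3. MXD1, the founding member known as MAD1 (ENSG00000059728, chromosome 2, 69897688 to 69942945), had 22, 54 and 52 counts without serum and 65, 41 and 8 with FBS. FBS replicate 3 was the lowest of the 6 and FBS replicate 1 the highest, and the 95% interval of its log2 fold change of 0.10 ran from -1.22 to 1.43 (edgeR adjusted p = 0.972). MXD1 shares 7888 bases with SNRNP27 on the same strand, which had 1410 counts against 242 for MXD1 over the 6 libraries.

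**Figure D2:**
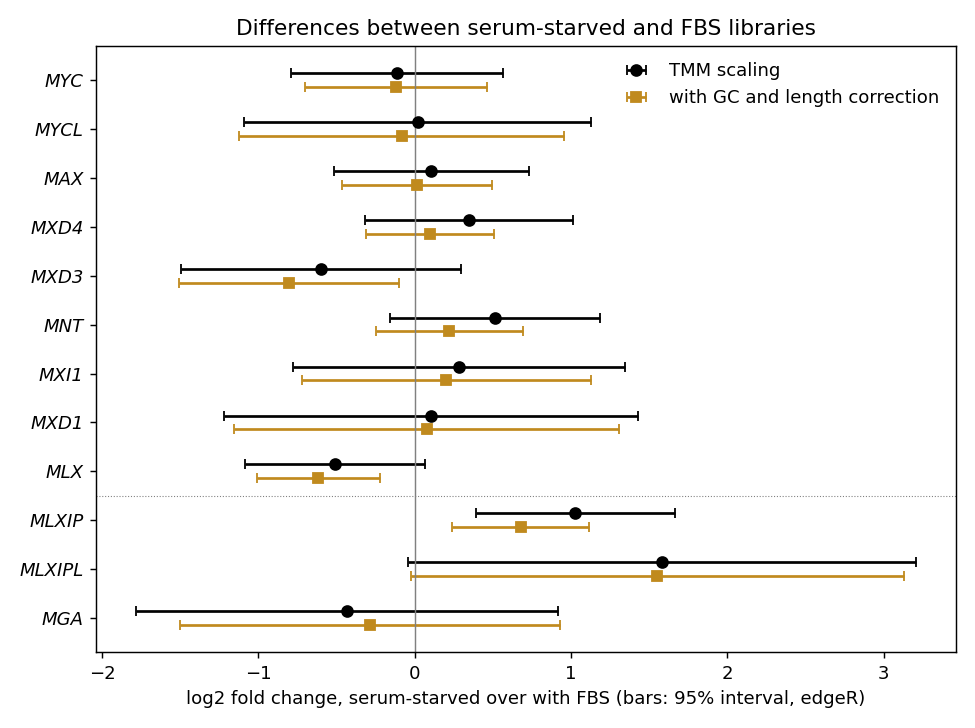
Points are log2 fold changes of serum-starved over FBS libraries (horizontal axis) with 95% intervals from edgeR, for the 9 detected members and, under the dotted line, for 3 further partners, with TMM scaling (black circles) and with the GC and length correction (ochre squares). The interval of MLX ends just above 0 with TMM scaling and lies below 0 with the correction, and that of MLXIP lies above 0 in both, although neither gene passed after adjustment over all genes.

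MLX was the 1 member of 9 without overlap between the groups (11.1%), a share below the 17.7% of all genes. MLX (ENSG00000108788, chromosome 17, 42567068 to 42573239) overlaps PSMC3IP on the opposite strand over 925 bases, with 964 counts for PSMC3IP and 7563 for MLX over the 6 libraries, and their reads there cannot be told apart. MLX was at 66.6, 60.0 and 50.2 CPM without serum and at 84.6, 80.3 and 86.8 CPM with FBS. Every serum-starved library lay below every library with FBS. The log2 fold change was -0.51 (SE 0.27, 95% interval -1.08 to 0.07) and did not pass (edgeR adjusted p = 0.538). It lay between -0.41 and -0.59 when each library was left out in turn. With the GC and length correction it was -0.62, with a 95% interval of -1.01 to -0.22, and still did not pass (edgeR adjusted p = 0.125), where 0.777% of all genes did, 0.588% higher and 0.189% lower.

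MLXIP, or MondoA, the partner through which MLX senses glucose (ENSG00000175727, chromosome 12, 122078722 to 122147347), was at 216, 158 and 225 CPM without serum and at 74.5, 98.8 and 120.3 CPM with FBS. All 3 serum-starved libraries were above all 3 with FBS. Its log2 fold change of 1.03 (SE 0.30, 95% interval 0.40 to 1.66) had an unadjusted edgeR p of 0.00317 and an edgeR adjusted p of 0.256, and in DESeq2 it passed with an adjusted p of 0.0473. Over all the alternatives its adjusted p ran from 0.0473 to 0.997, the highest without FBS replicate 1. MLXIP has a deposited length of 13905 bases, and with the GC and length correction its log2 fold change was 0.68 (95% interval 0.24 to 1.12, edgeR adjusted p = 0.128).

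MLXIPL, or ChREBP, the liver counterpart of MLXIP (ENSG00000009950, chromosome 7, 73593194 to 73624543), had 11, 43 and 39 counts without serum and 6, 10 and 11 with FBS. The groups did not overlap in CPM, at 0.748, 2.36 and 1.72 without serum and 0.305, 0.596 and 0.715 with FBS, but the difference did not pass (log2 fold change 1.58, SE 0.77, edgeR adjusted p = 0.497). With the correction the groups overlapped. MGA, a large repressor that pairs with MAX (ENSG00000174197, chromosome 15, 41621224 to 41773081), had 14, 31 and 35 counts without serum and 61, 16 and 25 with FBS, with an edgeR adjusted p of 0.868. MLX and MLXIP thus lay on opposite sides of 0, and the difference between their changes was not tested.

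Of 8 genes known as induced by dimers of MLX, 5 passed the low-count filter and none was called, with a median log2 fold change of -0.09 against -0.02 over all genes. TXNIP, the best known target of MondoA and also on the list of genes repressed by MYC, was at 10.3, 14.4 and 7.79 CPM without serum and at 13.4, 5.78 and 7.34 CPM with FBS (edgeR adjusted p = 0.860), with overlapping groups. ARRDC4, a paralog of TXNIP, had the lowest p below 0, at 0.837 ± 0.610 CPM without serum and 1.63 ± 0.0651 CPM with FBS (SD, n = 3 each; edgeR adjusted p = 0.706). HK2, a hexokinase, had the lowest p above 0, at 15.9 ± 3.92 CPM without serum and 11.8 ± 1.18 CPM with FBS (SD, n = 3 each; edgeR adjusted p = 0.720). PKLR and G6PC1 had no count in any library.

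Levels of different genes were compared per gene length with the deposited FPKM values, which carry the authors' scaling between libraries. The order and the FPKM ratios below depend on the deposited gene lengths, such as 3001 bases for MYC and 7058 for MXD4. In CPM, MXD4 averaged 156 without serum and 122 with FBS, against 132 and 142 for MYC. In FPKM, MYC had the highest mean in both groups, at 42.8 ± 19.2 FPKM without serum and 46.2 ± 0.465 FPKM with FBS (SD, n = 3 each). Without serum MXD4 (21.5 ± 7.64 FPKM) and MLX (13.5 ± 1.92) followed, and then MAX (7.35 ± 1.39), MXD3 (4.65 ± 2.89) and MNT (2.75 ± 0.556). With FBS the order was MLX (19.2 ± 0.702 FPKM), MXD4 (16.9 ± 3.41), MXD3 (7.06 ± 2.45), MAX (6.81 ± 1.12) and MNT (1.93 ± 0.375). MXI1, MYCL, MXD1 and MYCN came last in both. Without serum the ranges of MYC and MXD4 overlapped, while with FBS MYC lay apart from every other member. The ranges of MXD4 and MLX overlapped in both groups, as did those of MAX and MXD3 and those of MYCL and MXD1. Without serum the ranges of MXD3 and MNT also overlapped, as did those of MXI1 and MYCL. Where their ranges overlapped, the order within these pairs did not differ beyond the spread.

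MAX had less RNA per length than either side that competes for it. The MYC family held 3.35, 8.75 and 5.98 times the FPKM of MAX in the serum-starved libraries and 6.01, 6.68 and 8.25 times in those with FBS. The 5 repressive partners together held 4.43, 4.38 and 3.48 times the FPKM of MAX without serum and 2.67, 4.38 and 5.41 times with FBS. Both ratios overlapped between the groups. RNA ratios do not give the ratio of the proteins, and MYC protein is short-lived.

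The balance between repressive partners and the MYC family set serum-starved replicate 1 apart from the other 5 libraries. The summed FPKM of MXD1, MXD3, MXD4, MXI1 and MNT over that of the MYC family was 1.32, 0.50 and 0.582 without serum and 0.444, 0.655 and 0.656 with FBS. Serum-starved replicate 1 was the single library in which the repressive partners exceeded the MYC family, with the lowest MYC and the highest MXD4 of the 6, and it is also the library in which GC-rich genes stood highest. The part of GC content in that ratio was not tested. MXD4 made up 76.8, 63.3 and 69.7% of the repressive partners without serum and 63.1, 57.6 and 65.6% with FBS, and MYC 98.7 to 99.1% of its family without serum and 98.9 to 99.2% with FBS.

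**Figure D3:**
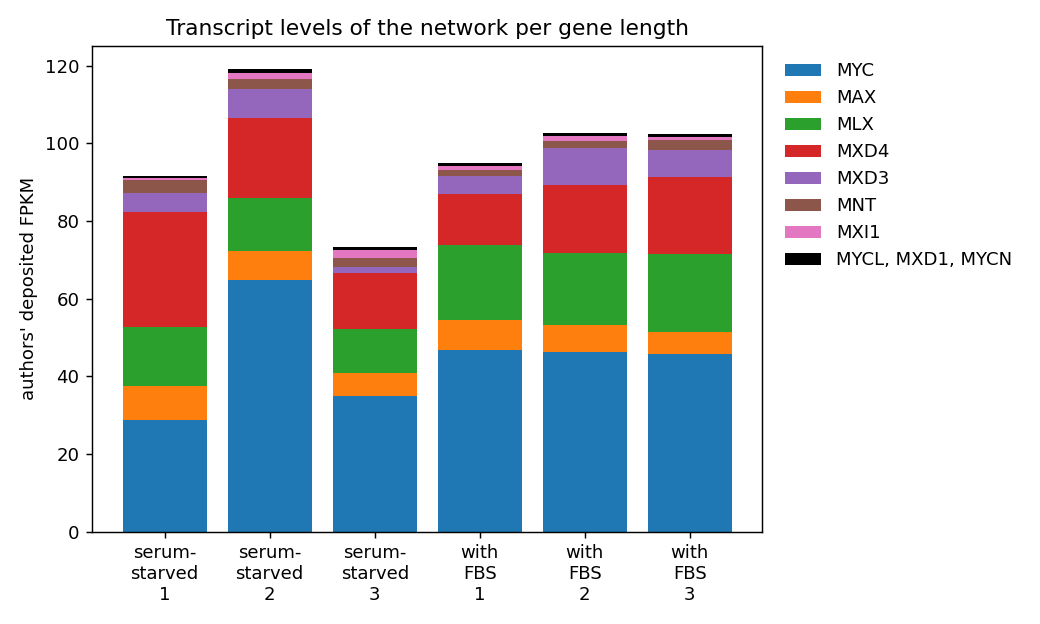
Stacked bars give the authors' deposited FPKM of the 10 genes (vertical axis, from 0) in each of the 6 libraries, serum-starved replicates on the left and FBS replicates on the right, with the 3 lowest genes summed in black. MYC is the largest block in 5 of the 6 libraries, and MXD4 is slightly larger than MYC in serum-starved replicate 1 (29.5 against 28.8 FPKM).

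The genes whose levels followed MYC most closely over the 6 libraries, by Pearson's r of log2 CPM, were MIR503HG (r = 0.994), CCDC40 (0.988), AP005233.2 (0.983), NUDT16P1 (0.979) and APBB1IP (0.976), as a description over 6 points. In all, 18 of the genes tested had r above 0.95. Of these 5, APBB1IP had a mean above 10 CPM (12.5 ± 3.62 CPM without serum and 13.4 ± 0.914 CPM with FBS, SD, n = 3 each), and MIR503HG was at 1.70, 9.39 and 2.64 CPM without serum and at 4.88, 4.59 and 3.90 CPM with FBS. Like MYC, all 5 were highest in serum-starved replicate 2 and lowest in serum-starved replicate 1.

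Genes known as induced by MYC lay mostly below 0. Of 68 such genes in ribosome production, nucleotide and polyamine synthesis, glycolysis and the cell cycle, 67 were tested (CCND2 had no count), and 51 had a fold change below 0 (76.1%, against 51.5% of all genes). None passed in edgeR, DESeq2 or limma-voom, and the median log2 fold change was -0.27 against -0.02 over all genes. At an unadjusted p under 0.05, 9 had a fold change below 0 and 1, TFRC, above, against 4.37% and 6.01% of all genes. That number of 10 rested on single libraries, and the number over all genes (1430 of 13772) moved in the same direction. Leaving out FBS replicate 1 gave 2 of the 67, against 658 of 14189 genes. Leaving out serum-starved replicate 1, 2 or 3 gave 16, 5 and 17 in that order. Over all genes these fits gave 1797 of 14317, 1296 of 14240 and 2394 of 14179. With the GC and length correction it was 21 of the 67, against 2199 of 13772. The groups did not overlap in 15 genes with a fold change below 0 (22.4% of the 67, against 7.65% of all genes) and in 1 above, SLC1A5 (1.49%, against 10%).

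WDR43, a factor of small ribosomal subunit assembly, had the lowest p in that list, at 10.9, 11.2 and 17.3 CPM without serum and at 42.0, 21.4 and 21.3 CPM with FBS. Its groups did not overlap, and its log2 fold change was -1.10 (SE 0.36, edgeR adjusted p = 0.290), passing only without serum-starved replicate 3 (edgeR adjusted p = 0.0398). It was -0.70 without FBS replicate 1 and -0.83 after correction for GC content and length. TFRC, the transferrin receptor, had the lowest p above 0, at 50.6, 98.7 and 170 CPM without serum and at 66.1, 66.1 and 56.9 CPM with FBS, with overlapping groups (log2 fold change 0.76, edgeR adjusted p = 0.479). That fold change was 0.24 without serum-starved replicate 3 and 0.87 after the correction. ODC1, the first enzyme of polyamine synthesis and a textbook MYC target picked after its values were seen, averaged 341 ± 87.4 CPM without serum and 595 ± 109 CPM with FBS (SD, n = 3 each; log2 fold change -0.80, SE 0.32, edgeR adjusted p = 0.388).

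Library by library, the MYC-induced list and MYC itself are given side by side. Set against each gene's mean over the 6 libraries on the log2 scale, that median was -0.02, -0.15 and -0.11 in the serum-starved libraries and 0.12, 0.15 and 0.16 in those with FBS. MYC itself was at -0.59, 0.59 and -0.30 without serum and at 0.14, 0.09 and 0.08 with FBS. The median of all genes was 0.01, 0.04 and 0.03 without serum and 0.07, 0.03 and 0.03 with FBS. The list's median and MYC were on the same side of 0 in all libraries but serum-starved replicate 2. Within the serum-starved group their order was reversed. The list was lowest in replicate 2, where MYC was highest, and nearest 0 in replicate 1, where MYC was lowest. No test of this was made. Corrected for GC content and length, the median fold change of the list was -0.29 on the log2 scale, and uncorrected it lay between -0.25 and -0.32 when each library was left out.

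Of 22 genes known as repressed by MYC, 17 were tested, none passed in edgeR and 12 had a fold change above 0 (5 below, 29.4%, against 51.5% of all genes), with a median of 0.28 on the log2 scale against -0.02. With the correction for GC content and length 9 were above 0 and 8 below, with a median of 0.32 against 0.01 over all genes. With limma-voom 10 were above 0 and 7 below, with a median of 0.26 against -0.07. NDRG1, a growth-restraining gene also induced by hypoxia, was at 102, 125 and 112 CPM without serum and at 56.1, 61.7 and 62.3 CPM with FBS. Its groups lay well apart, but the log2 fold change of 0.91 (SE 0.27) had an edgeR adjusted p of 0.256. It passed in DESeq2 (adjusted p = 0.0404) and without serum-starved replicate 3 (edgeR adjusted p = 0.0494), where CDKN1A, the gene of p21, passed as well (edgeR adjusted p = 0.0183). After correction for GC content and length the fold change of NDRG1 was 0.64. ITGB1, the beta-1 integrin, had the lowest p below 0, at 60.2 ± 19.4 CPM without serum and 96.3 ± 24.1 CPM with FBS (SD, n = 3 each; edgeR adjusted p = 0.464), and its log2 fold change of -0.68 became -0.38 with the correction.

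**Figure D4:**
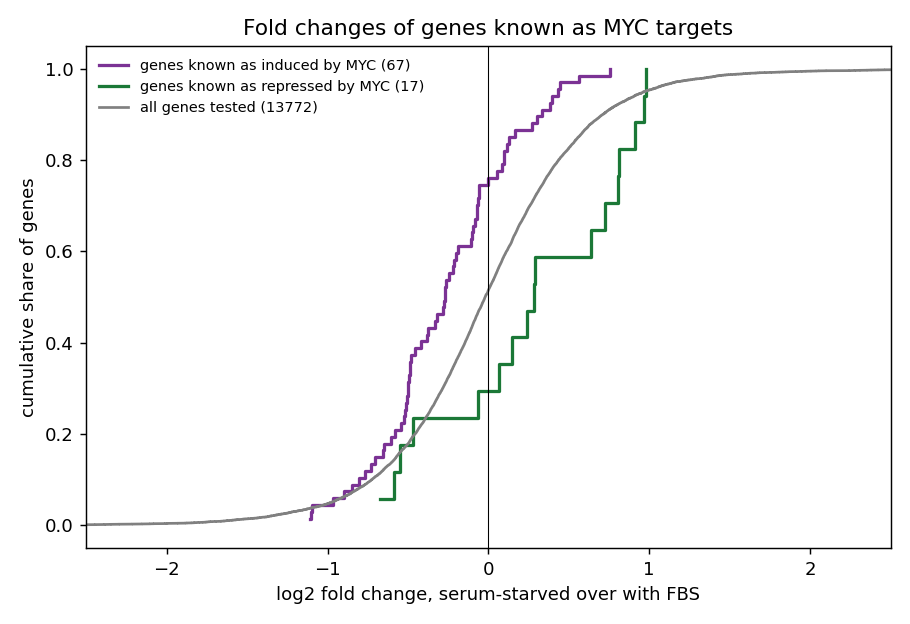
Lines give the cumulative share of genes (vertical axis) up to each log2 fold change of serum-starved over FBS libraries (horizontal axis) for 67 genes known as induced by MYC, 17 known as repressed by MYC and all 13772 genes tested. The induced list runs to the left of all genes (median -0.27 against -0.02) and the repressed list to the right over most of its range (median 0.28).

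Cofactors of the network had no called member either. Of 14 genes of the SIN3 and NCOR corepressor complexes that MXD and MNT proteins recruit, 7 lay above 0 and 7 below, with a median of -0.0011. SAP30, a SIN3 subunit, was at 2.65, 7.08 and 4.18 CPM without serum and at 17.3, 9.77 and 7.80 CPM with FBS, without overlap (log2 fold change -1.32, SE 0.45, edgeR adjusted p = 0.315). SIN3A, the scaffold, was at 37.4 ± 13.4 CPM without serum and 23.1 ± 4.97 CPM with FBS (SD, n = 3 each; edgeR adjusted p = 0.474). Its log2 fold change of 0.70 was 0.37 with the correction and also 0.37 without serum-starved replicate 3, and that of SAP30 was -1.13 with the correction.

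Of 15 coactivators and cofactors of MYC, 7 lay above 0 and 8 below. The groups did not overlap in 4 genes above 0, TRRAP, EP400 and EP300 among them (26.7%, against 10% of all genes), and in 1 below, RUVBL1 (6.67%, against 7.65%). These counts are of uncorrected CPM and were not repeated with the GC and length correction. EP400, a chromatin remodeler that acts with TRRAP, had the lowest p, at 90.7, 91.2 and 156 CPM without serum and at 42.5, 58.1 and 70.8 CPM with FBS (log2 fold change 0.98, SE 0.31, edgeR adjusted p = 0.289). After correction for GC content and length that fold change was 0.58, and serum-starved replicate 3, where long genes stood highest, was its highest library. RUVBL2, an ATPase of the same complexes, had the lowest p below 0, at 438 ± 207 CPM without serum and 648 ± 108 CPM with FBS (SD, n = 3 each; edgeR adjusted p = 0.603). Its log2 fold change of -0.57 was -0.71 with the correction and -0.30 without serum-starved replicate 3.

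Of 20 genes that control the turnover of MYC protein, 11 lay above 0 and 9 below, and none passed in edgeR. Without serum-starved replicate 3 the split turned, with 5 above 0 and 15 below and a median log2 fold change of -0.20, against 0.05 with all libraries. In that fit 50.6% of all genes lay below 0, with a median of -0.008. In every other alternative 9 to 11 of the list lay below 0. CIP2A, which shields MYC from the phosphatase PP2A, was at 3.87, 4.28 and 4.01 CPM without serum and at 17.0, 10.7 and 7.73 CPM with FBS. Its groups did not overlap, and the log2 fold change of -1.54 (SE 0.41) had an edgeR adjusted p of 0.176 and a DESeq2 adjusted p of 0.0192. HUWE1, a ubiquitin ligase with MYC among its substrates, was at 248, 229 and 491 CPM without serum and at 119, 154 and 170 CPM with FBS (log2 fold change 1.13, SE 0.34, edgeR adjusted p = 0.256). Corrected for GC content and length, HUWE1 was at 0.75 and CIP2A at -1.02 on the log2 scale, and neither passed. Without serum-starved replicate 3 HUWE1 was at 0.69.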

How the data were processed

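Total RNA of 6 Ovcar8 libraries was prepared with a NEBNext kit and sequenced, per the labels' protocols, and grouped by treatment. STAR 2.6.1, DESeq2 and GRCh38 are named per the submitters' processing notes. For the counting tool and its strand setting nothing is stated. The authors deposited whole-number counts and FPKM values per gene, and all 58735 gene IDs and positions matched GENCODE 29. The deposited FPKM values divide counts by gene length and by a library scale that was 0.869 to 1.19 times the library's total.

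Counts were filtered with edgeR's filterByExpr (minimum count 10, minimum total 15), scaled with TMM and tested in R 4.3.3 by edgeR 4.0.16 (functions glmQLFit, robust, and glmQLFTest); adjustment after Benjamini and Hochberg covered 13772 genes, and the threshold was 0.05. The biological coefficient of variation was 36.3%. SE is the log2 fold change divided by the square root of F. A count of 3 was worth 0.132 to 0.204 CPM.

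Alternatives were DESeq2 1.42.0, limma 3.58.1 (voom, and log2 of FPKM with pseudocounts of 1 and 0.1, keeping genes from a mean FPKM of 0.5 up, or unfiltered), other scalings and filters, no robust estimation, a replicate block, each library left out, and per-library splines (5 degrees of freedom) of gene length and transcript GC content, known for 13768 genes. The members, the lists and these alternatives were chosen with earlier results of these data known, so patterns already seen in them are not independent support. Named genes were the members, MGA, MLXIP and MLXIPL, the gene of lowest p per list and direction (up to 2 where any passed) and the 5 genes most correlated with MYC. Genes named beside a count outside this rule, and TXNIP, were chosen after their values were seen.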

Additional observations from a re-analysis of the deposited data

How the results depend on the processing

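No member was called under any of the 18 alternatives, and MLX, MNT, MXD3 and MXD4 kept the sign of their fold change in all of them. Over all genes, 39 were called in the test reported, 25 with total counts alone, 127 without a low-count filter, 160 with DESeq2 (118 higher, 42 lower), 107 with the GC and length correction, 22 with log2(FPKM + 1) and 19 with log2(FPKM + 0.1). With log2(FPKM + 1) and no filter limma called 0, with 1534 at an unadjusted p under 0.05. Leaving out each library gave 4 to 257 (lowest without FBS replicate 1, highest without serum-starved replicate 3). DESeq2 called 1 gene among the partners outside the member list (MLXIP), 1 among the MYC turnover genes (CIP2A) and 1 among the MYC-repressed genes (NDRG1). Leaving out a library gave 0 to 1 calls among MYC-induced genes and 0 to 2 among MYC-repressed genes. Log2 fold changes that changed sign lay, over the libraries left out, between -0.55 and 0.12 for MYC, -0.26 and 0.26 for MYCL, -0.014 and 0.24 for MAX, -0.34 and 0.59 for MXD1, -0.22 and 0.73 for MXI1 and -0.74 and 0.12 for MGA. MYCL was also at -0.083 with the GC and length correction and at -0.00065 with log2(FPKM + 1) and no filter. The cause of these changes was not tested beyond the change of samples, filter or scale itself.

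The replicate block gave 43 called genes and no called member, and MYCL was at -0.033 under it. Whether the same number marks a shared culture or batch is not stated in the labels. Deviations of libraries with the same number correlated at -0.26, 0.10 and -0.08, and not every library correlated best with its own number. These deviations also carry the differences in base composition between libraries, so they cannot decide whether the numbers are paired. MYCL, MXD1, MXI1, MGA and MLXIPL rest on few counts, and the serum-starved libraries of MXI1 were also 5.09 times apart. The 95% intervals of these log2 fold changes reached more than 1 to either side of the estimate. Differences smaller than this were not detectable at this depth and spread. Larger ones could also miss the threshold after adjustment over all genes, as did MLXIPL at a log2 fold change of 1.58 (edgeR adjusted p = 0.497).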
